A study of Arabidopsis thaliana with 4 samples.

Results

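The AP2/ERF transcription factors described here were found by name: a probe set counted where it maps to 1 gene whose RefSeq symbol or synonym begins with ERF, DREB, CBF, CRF or RAP2. followed by a digit. The platform annotation of the Affymetrix ATH1 array names 0 such probe sets among the 22746 tested. A further 13 are named only through single-gene rows of a supplementary list of the study, and 12 of them encode AP2/ERF proteins. The other one is NAP57, which carries the synonym CBF5 and is a pseudouridine synthase of small nucleolar ribonucleoproteins; it meets the rule by name only and was set apart. All rows of that list held here, 1998 of 2725, had been picked by the study as higher in the mutant on these same arrays, so the direction of the 12 members is fixed by how they came to have a name and is described without a test. For 50 of the 63 loci whose names meet the rule, a few of them by name only, no probe set is named for that locus alone in the sources used here, among them ERF1, ERF5, CBF2, CBF3 and the CRF genes, and these were not analysed here.

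Wild type seedlings of the Col-0 ecotype were compared with Atdi19-3 seedlings, which carry a T-DNA insertion in AtDi19-3, a drought-induced zinc finger gene. The mutant is a single insertion line (SALK_072390), so the mutant is represented by 1 line. Seedlings of both genotypes were 10 days old, had been grown on 1/2 MS medium at 22 °C with 16 h of light and 8 h of dark after 72 h of stratification in the cold, received no special treatment before harvest, and were harvested whole. Each genotype was measured on 2 arrays, which the sample titles call biological replicates, and each value is a GCRMA value on the log2 scale, background-corrected and normalized by the authors. The array number limits the precision. In whole seedlings, fewer cells of a type and less RNA per cell cannot be told apart.

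Proteins of the AP2/ERF family bind DNA through the AP2 domain and are largely confined to plants. DREB proteins, among them the CBFs, bind the dehydration-responsive element in front of cold and drought genes. ERF proteins bind the GCC box in front of defence genes, some as activators and some as repressors that carry an EAR motif, and several are induced by ethylene, by jasmonate or by wounding and other stress.

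Some array measures that touch every value below also differed between the genotypes. The median of the hybridization spike-ins, foreign transcripts added to each array in equal amounts, was 9.69 and 9.41 in wild type seedlings and 5.92 and 6.20 in the mutant. The 3' probe set of ubiquitin exceeded its 5' probe set by 4.41 and 4.09 in the wild type and by 0.599 and 0.714 in Atdi19-3, and the share of tested probe sets over 4 was 7.10% and 8.34% against 14.1% and 13.5%. These differences split the arrays as the genotypes do, so their part in the changes cannot be told apart from that of the genotype. Of the shoot markers 3 of 8 were named, and their summed log2 value was 14.32 to 14.46 in the wild type and 21.65 to 22.01 in Atdi19-3. LHCB4.1 and LHCB4.2 were higher in the mutant and LHCB4.3 was lower on the deposited values (1.54 higher with spike-in centring). Of the root markers 2 of 9 were named, PYK10 (3.21 to 3.56 over the 4 arrays) and EXPA7 (2.60 to 2.68), both close to the lowest value of the table, so the root share of the seedlings could not be judged from them. No seed, flower or senescence marker and no probe set for AtDi19-3 itself was named here. The part of these differences in the members' values was not tested.

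All 12 members read higher on both Atdi19-3 arrays than on both wild type arrays, and 28.5% of all tested probe sets did so. In 6 of the 12 a wild type array read under 3 or both wild type values were identical, so that those differences are lower bounds and give no rank. The log2 difference, Atdi19-3 minus wild type, ran from 1.16 to 2.78 with a median of 1.77, beside a median of 0.00 over all tested probe sets and of 1.31 over the 1850 other single-gene probe sets of the same list, which share the way of selection. With limma and a Benjamini-Hochberg adjusted p under 0.05 over all tested probe sets, 5 of the 12 were called higher and 0 lower, where 3.16% of all tested probe sets were called higher and 0.602% lower. As the list was picked from this contrast, nothing is read from the members' count. The calls fell to 0 with the replicate block and with the trended prior, where 0 and 2 of all tested probe sets were called higher. They fell to 2, ERF104 and DREB2A, after quantile normalization, where 1.19% of all tested probe sets were called higher. The spread between the 2 arrays of a genotype reached 1.01 in the wild type and 0.36 in Atdi19-3. Each member's difference was larger than its own spread in either genotype. The way of selection favours this and no share of all tested probe sets was counted, so nothing is read from it.

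**Figure D1:**
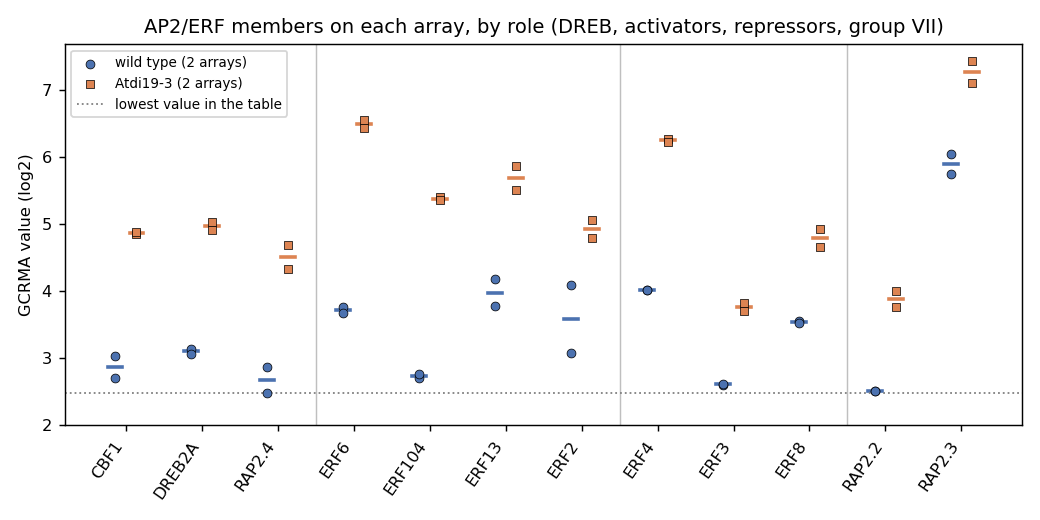
GCRMA value (log2) of the 12 AP2/ERF members on each of the 4 arrays, grouped by role; points are single arrays, short lines the mean of 2 arrays, and the dotted line the lowest value in the table, 2.49. In each member both Atdi19-3 arrays lie above both wild type arrays, with the narrowest gap, 0.71, in ERF2 and the widest, 2.67, in ERF6.

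Among the DREB proteins, CBF1 (DREB1B, AT4G25490) activates cold-regulated genes and is known for its role in cold acclimation and freezing tolerance. It read 2.71 and 3.03 in wild type seedlings and 4.85 and 4.88 in the mutant, a difference of 1.99 (SE 0.14, n = 2 arrays per genotype, as for all differences below). The wild type values lay near the lowest value of the table, 2.49, where low transcripts are compressed, so no fold is given for CBF1. In the gene table CBF3 (listed as DREB1A) is the gene just before CBF1 on chromosome 4, and it has no probe set named for it alone here.

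DREB2A (AT5G05410), an activator of drought and heat responses, read 3.14 and 3.07 in wild type seedlings against 5.04 and 4.92 in the mutant. The arrays of each genotype lay close together, and the difference of 1.88 (SE 0.06) corresponds to 3.67-fold. RAP2.4 (AT1G78080), another protein of the DREB subfamily, read 2.49 and 2.87 against 4.33 and 4.69, a difference of 1.83 (SE 0.23). One of its wild type arrays sat at the lowest value of the table. A probe set shared by DREB2C and AT2G40350 names neither gene, and it read 2.57, 3.08, 2.57 and 2.57 over the 4 arrays, with no gap between the genotypes.

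Of the ERF activators of group IX, 4 were named, with differences from 1.35 to 2.78. ERF6 (AT4G17490), which is known from oxidative stress and growth responses, read 3.76 and 3.67 in wild type seedlings against 6.56 and 6.44 in the mutant. Both mutant arrays lay well above both wild type arrays, and the difference of 2.78 (SE 0.07) corresponds to 6.87-fold. ERF104 (AT5G61600), a substrate of the immune kinase MPK6, read 2.70 and 2.76 against 5.40 and 5.36. The difference was 2.65 (SE 0.03) from wild type values near the lowest value of the table.

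ERF13 (AT2G44840) read 3.78 and 4.18 in wild type seedlings against 5.51 and 5.87 in the mutant, a difference of 1.71 (SE 0.24), or 3.26-fold. ERF2 (AT5G47220), an activator of GCC-box genes that responds to jasmonate, read 4.09 and 3.08 against 5.07 and 4.80. The wild type arrays of ERF2 stood apart by 1.01, the widest spread of any member, and its difference of 1.35 (SE 0.47) was 0.84 without wild type replicate 2 and 1.85 without wild type replicate 1. The genotypes of ERF2 overlapped after quantile normalization, where its arrays read 4.66 and 3.20 against 4.61 and 4.40. The other 11 members stayed apart in both scalings. No share of all tested probe sets was counted after quantile normalization, so nothing is read from this count.

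The EAR-motif repressors of group VIII were higher in the mutant as well. ERF4 (AT3G15210), which represses GCC-box genes and modulates ethylene and abscisic acid responses, read 4.02 on both wild type arrays against 6.27 and 6.23 in the mutant. The difference was at least 2.23 (SE 0.02), since the 2 wild type values were identical as deposited, as they were for 24.1% of all tested probe sets, and may mark the floor of this probe set. The SE rests on the spread of the Atdi19-3 arrays and limma's prior. ERF3 (AT1G50640) read 2.60 and 2.62 against 3.70 and 3.83, a difference of 1.16 (SE 0.06) from wild type values near the lowest value of the table. ERF8 (AT1G53170) read 3.56 and 3.52 against 4.66 and 4.93, a difference of 1.25 (SE 0.12), or 2.39-fold. The 5 calls were ERF4, ERF3, ERF6, ERF104 and DREB2A, where 23.5% of the other single-gene probe sets of the list were called higher. As the list was picked from this contrast, nothing is read from how the calls fell among the roles.

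Group VII proteins are known from the response to low oxygen, since their stability depends on oxygen through the N-degron pathway. RAP2.2 (AT3G14230) read 2.52 on both wild type arrays against 3.76 and 4.0 in the mutant, a difference of 1.36 (SE 0.11) from values at the bottom of the scale. RAP2.3 (AT3G16770, also EBP) read 6.05 and 5.75 against 7.10 and 7.44, a difference of 1.37 (SE 0.21), or 2.58-fold. RAP2.3 was the one member above 5 on both wild type arrays. NAP57 (AT3G57150), the gene that shares only a name with the CBFs, read 2.94 and 2.65 against 3.55 and 4.09, a difference of 1.02 (SE 0.27).

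Counted by a fixed level, 2 of the 12 members, RAP2.3 and ERF4 (whose identical values of 4.02 may be a floor), were over 4 on both wild type arrays, and 10 were over 4 on both Atdi19-3 arrays. The members not over 4 on both mutant arrays were ERF3 and RAP2.2. On single arrays 3 members were over 4 on each wild type array and 10 (83.3%) on each Atdi19-3 array. Among the other single-gene probe sets of the list the shares were 20.5% and 25.6% in wild type seedlings against 79.5% and 75.5% in the mutant. At a level of 3 the members counted on both arrays were 7 in the wild type and 12 in Atdi19-3, and at a level of 5 they were 1 and 5. On single arrays 7.62% and 9.73% of the list's other probe sets were over 5 in the wild type, against 41.3% and 39.3% in Atdi19-3. Of all tested probe sets 3.64% and 4.19% were, against 7.12% and 6.9%. Over 3 were 27.0% and 27.5% of all tested probe sets, against 33.1% and 31.8%. The rise is thus not particular to the members.

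**Figure D2:**
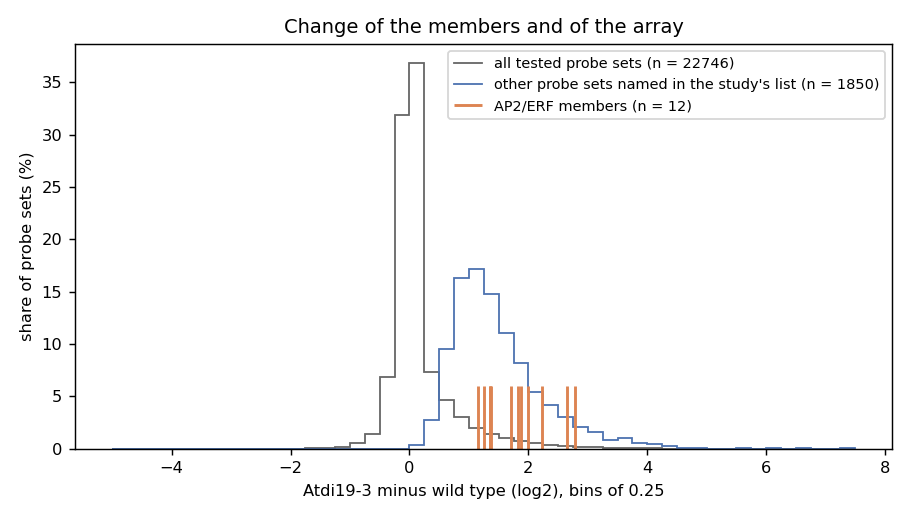
Share of probe sets (%) in bins of 0.25 of the log2 difference, Atdi19-3 minus wild type, for all 22746 tested probe sets (grey) and for the 1850 other single-gene probe sets of the study's list (blue), with the 12 members as orange lines whose height has no meaning. The members lie between 1.16 and 2.78, within the range of the blue outline and to the right of most of the grey one.

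The size of the differences depended on the scaling between arrays. After quantile normalization, which gives the 4 arrays the same distribution, the 12 differences ran from 0.50 in ERF8 to 2.21 in ERF104. Their median was 1.20, beside 0.76 over the other single-gene probe sets of the list and 0.00 over all tested probe sets. Each was still above 0, from which nothing is read, since the list fixed the direction. The members kept between 39.4% and 83.4% of the difference on the deposited values. RAP2.3 was left with 0.54, ERF2 with 0.58 and ERF13 with 0.84, while ERF6 kept 1.97 and ERF104 2.21. ERF4 went from 2.23 to 1.35, and DREB2A from 1.88 to 1.29. Centring each array on the mean of its 18 spike-ins (8.47 and 8.32 in the wild type, 6.08 and 6.31 in Atdi19-3) added 2.20 to every probe set, and centring on their median, tried after the data were seen, added 3.49. Either one shifts all probe sets alike, so the members' differences relative to the median of all tested probe sets stay as they were.

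**Figure D3:**
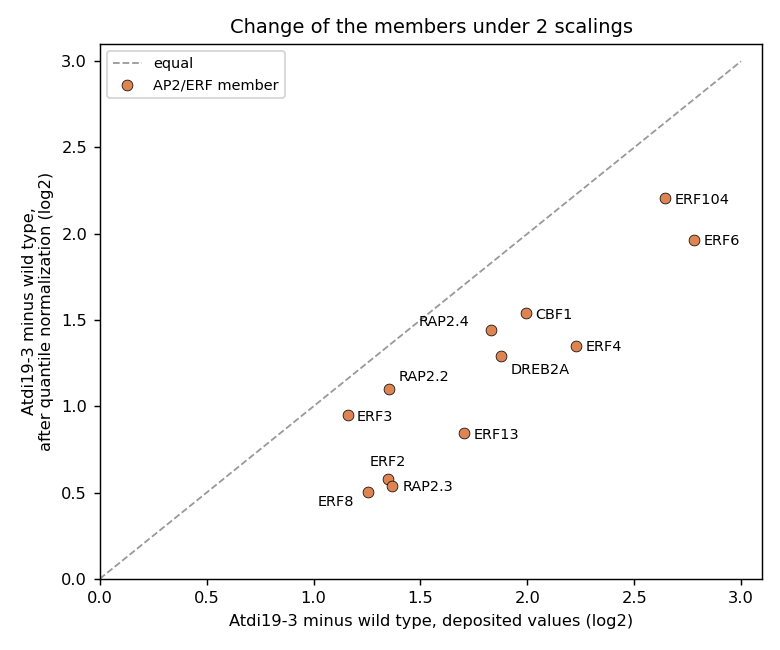
Log2 difference, Atdi19-3 minus wild type, of the 12 members on the deposited values (x axis) and after quantile normalization (y axis); the dashed line marks equal values. Each member lies below the line and above 0, with ERF8 at 0.50 the lowest and ERF104 at 2.21 the highest after quantile normalization.

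AP2/ERF genes whose names do not meet the rule were also read, and here the platform annotation names 10 probe sets without regard to the mutant. In 9 of them, HRD, SNZ, SMZ, TINY2, LEP, BBM, PUCHI, SHN3 and TINY, the values lay between 2.50 and 2.90 on all 4 arrays, at the bottom of the scale. These include regulators of flowering (SMZ and SNZ) and of embryo and organ initiation (BBM, PUCHI and LEP), and their differences ran from -0.15 to 0.02 with the lowest unadjusted p at 0.27. Values this close to the bottom of the scale give no order between the genotypes.

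The remaining gene was ORA47 (AT1G74930), a DREB-subfamily protein known for promoting jasmonate synthesis. It read 4.48 and 3.19 in wild type seedlings against 6.50 and 6.55 in the mutant, so the genotypes did not overlap although the wild type arrays stood apart by 1.29. The difference of 2.69 (SE 0.58) did not pass the test in limma (adjusted p = 0.19) and was 1.88 after quantile normalization. Its size rested on which wild type array was kept, with 3.34 without wild type replicate 1 and 2.05 without wild type replicate 2. Its probe set is also in the study's list. In all, 0 of the 10 were called in limma and 1, ORA47, had an unadjusted p under 0.05.

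**Figure D4:**
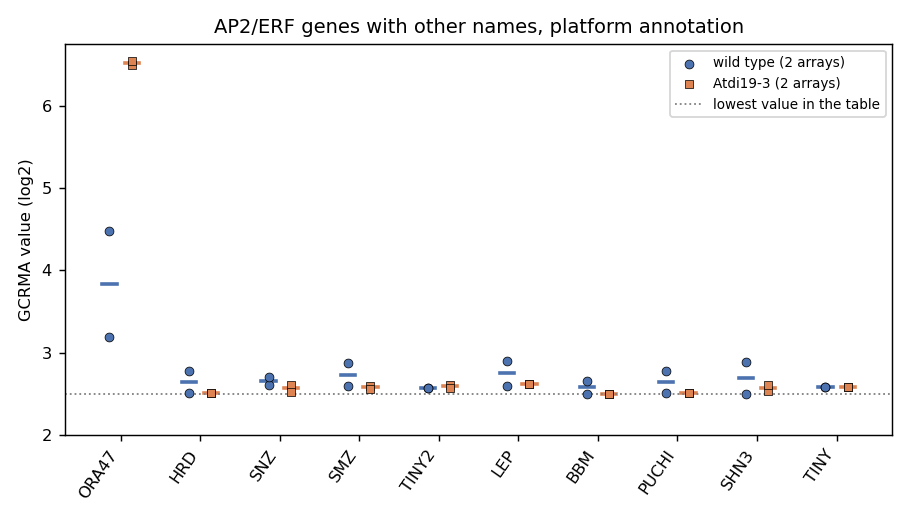
GCRMA value (log2) on each of the 4 arrays for 10 AP2/ERF genes that the platform annotation names and the name rule does not include; points are single arrays, short lines the mean of 2 arrays, and the dotted line the lowest value in the table. ORA47 is the one gene whose Atdi19-3 arrays, 6.50 and 6.55, stand above its wild type arrays, while the other 9 stay between 2.50 and 2.90.

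A further 5 family genes were named only through the study's list and carry its selection. The RefSeq gene table gives 3 of them no name but their locus, so that they fell outside the rule, and they are called here ERF043, ERF017 and ERF022 by their family names. ERF043 (AT4G32800) read 3.16 and 2.83 against 5.18 and 4.82, a difference of 2.00, and ERF017 (AT1G19210) 2.77 and 3.07 against 3.90 and 4.01, a difference of 1.04. TEM1 (AT1G25560), a repressor of flowering, differed by 0.74, ERF-1 (AT4G17500) by 0.71 and ERF022 (AT1G33760) by 0.67. After quantile normalization ERF022 was left with 0.06 and ERF-1 with 0.00.

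Of 13 genes known as targets of DREB and CBF proteins, 5 were named, 4 with lower values in the mutant on the deposited scale and 1, COR413-PM1, with higher values. The platform annotation names the first 4, and in each both Atdi19-3 arrays lay below both wild type arrays, as they did in 10.4% of all tested probe sets. COR15A, a chloroplast protein that protects membranes against freezing, read 6.93 and 7.05 against 5.99 and 6.14, a difference of -0.93 (SE 0.09, adjusted p = 0.072 in limma). COR47, a dehydrin, read 7.42 and 7.22 against 6.50 and 6.37, a difference of -0.88 (SE 0.10, adjusted p = 0.092 in limma).

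COR15B differed by -1.05 (SE 0.28), with Atdi19-3 arrays at 6.08 and 6.69, and LTI30, another dehydrin, by -0.86 (SE 0.16), so that 0 of the 4 were called in limma on the deposited values although all 4 had an unadjusted p under 0.05. After quantile normalization the 4 differences were -1.75 for COR15A, -1.64 for COR47, -1.83 for COR15B and -1.66 for LTI30, with COR15A and LTI30 called lower (adjusted p = 0.045 and 0.040 in limma), whereas spike-in centring turned all 4 to the other side of 0, from 1.14 to 1.34 on the mean and from 2.44 to 2.63 on the median, each below the shift of all probe sets. A probe set shared by KIN1 and KIN2 names neither and read 10.54 and 10.44 against 10.08 and 9.77. COR413-PM1, the one listed target named only through the study's list, read 3.50 and 3.41 against 5.78 and 5.82, a difference of 2.35 (SE 0.05) on the deposited values, 1.58 after quantile normalization. It passed the call in limma, but as for the members its direction was fixed by the list.

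Among defence genes that ERF proteins are known to control through the GCC box, 2 plant defensin genes were named, and 1 of them was called lower. PDF1.2B read 7.75 and 7.87 in wild type seedlings against 2.86 and 2.98 in the mutant, and was called lower with a difference of -4.89 (SE 0.08, adjusted p = 0.018 in limma). Its probe set may also pick up related sequences, such as those of PDF1.2. PDF1.2, the usual marker of joint jasmonate and ethylene signaling, read 6.34 and 6.78 against 2.51 and 3.12, a difference of -3.75 (SE 0.34, adjusted p = 0.067 in limma). Both defensins stayed below 0 under quantile normalization (-5.24 and -4.19) and under spike-in centring (-2.69 and -1.55 on the mean, -1.40 and -0.26 on the median). The -0.26 of PDF1.2 is smaller in size than its SE of 0.34 on the deposited values, so no direction is read from it. The mutant values of both lay near the lowest value of the table, so the differences on the deposited values are lower bounds in size on that scale. PDF1.2B was not called without either Atdi19-3 array, with the replicate block or with the trended prior. THI2.1 and OSM34 lay between 2.66 and 3.17 on all arrays and differed by -0.02 and 0.07.

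**Figure D5:**
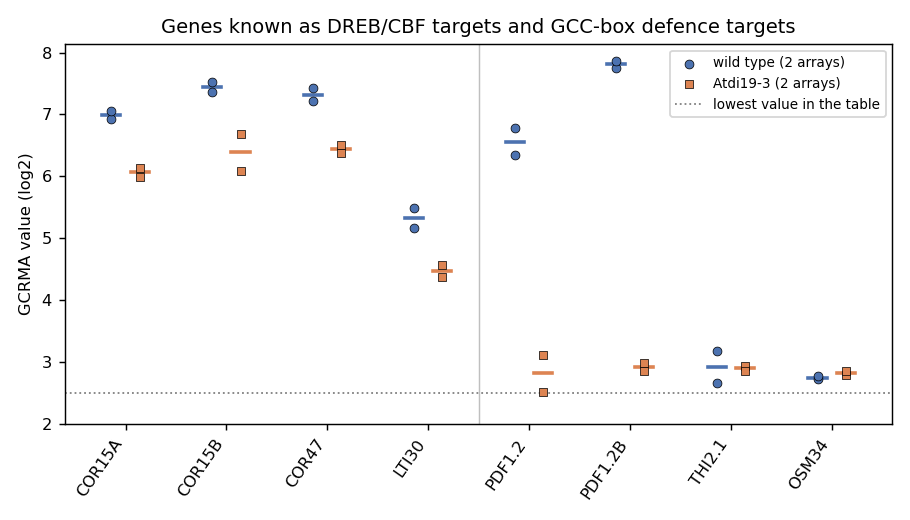
GCRMA value (log2) on each of the 4 arrays for 4 genes known as DREB/CBF targets (left) and 4 GCC-box defence genes (right); points are single arrays, short lines the mean of 2 arrays, and the dotted line the lowest value in the table. The COR and LTI genes are 0.86 to 1.05 lower in Atdi19-3 on the deposited values (the sign turns with spike-in centring). On the deposited values PDF1.2 and PDF1.2B are at least 3.75 and 4.89 lower, from mutant values near the dotted line. With spike-in centring their differences are -1.55 and -2.69 on the mean, -0.26 and -1.40 on the median. THI2.1 and OSM34 lie near the bottom of the scale in both genotypes.

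Of the ethylene signaling genes the platform annotation names 2 of 13. EIN3, the transcription factor that switches on ERF genes in the ethylene response, read 4.04 and 4.02 in wild type seedlings against 4.93 and 4.76 in the mutant, a difference of 0.82 (SE 0.08, adjusted p = 0.071 in limma) that became -0.04 after quantile normalization and is in the study's list. RTE1 read 2.68 to 2.82 on all arrays. EBF1, an F-box protein that removes EIN3, was named only through the list and read 2.62 and 2.71 in the wild type, with both mutant arrays above these and a difference of 1.59.

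The ethylene synthesis genes named were 3 of 13, each only through the list, so their direction was fixed beforehand as for the members. ACS6, an enzyme that makes the ethylene precursor ACC, read 4.01 and 4.36 against 6.67 and 6.65. MAT3, which makes S-adenosylmethionine, read 3.38 and 3.59 against 6.04 and 5.96, and SAM1, of the same enzyme family, 3.50 and 4.05 against 5.16 and 5.61. As in 99.0% of the other single-gene probe sets of that list, the genotypes did not overlap in these genes, with differences of 2.48 for ACS6, 2.52 for MAT3 and 1.61 for SAM1.

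The list also named 2 of 9 hypoxia genes, LBD41, with 2.57 and 2.66 against 5.60 and 5.28, and the sucrose synthase SUS1, with 3.02 and 2.64 against 4.21 and 3.51. Of 5 type-A response regulators of cytokinin signaling it named ARR4, which differed by 1.36, and ARR5, which differed by 1.13. The platform annotation named ARR15, which read 2.68 to 2.80 on all arrays. Of 9 genes that act upstream of the CBFs none was named here. Over all 7 lists, 11 of 69 genes were named by the platform annotation, and of these 0 were called higher in limma, 1 was called lower. At an unadjusted p under 0.05, 6 of the 11 were lower and 1 was higher, where 3.85% of all tested probe sets were lower and 14.6% higher. The lists were chosen with earlier results of these data known, and the PDF1.2B probe set may also pick up PDF1.2. Nothing is therefore read from these counts.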

How the data were processed

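RNA of 10-day-old seedlings was labelled with biotin from the 3' end (500 ng of total RNA) and hybridized to 4 Affymetrix ATH1 arrays. The authors deposited GCRMA values on the log2 scale, 1 per probe set and array. GCRMA and R 3.4.0 are named in the submitters' processing notes, with no version for GCRMA. The values run from 2.49 to 12.16 and carry no detection call, and scans were not analysed here. In R 4.3.3 with limma 3.58.1, lmFit and eBayes were run on 22746 probe sets (64 control probe sets left out), with no covariate and no filter, with Benjamini-Hochberg adjustment over all 22746 and a call at an adjusted value below 0.05. The fit was tested on simulated data. The prior was worth 0.481 degrees of freedom.

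The platform annotation gives 1 gene for 13513 probe sets, several for 503 and none for 8730, and 13436 of the first matched a locus of RefSeq TAIR10.1. From the supplementary list only names were taken, not values, and 1863 of its rows held here give 1 gene. Members, gene lists and tests were chosen with earlier results of these data known, and the family genes named through the list were chosen after the values were seen. The genes named were all members, and per list up to 4 called genes or, where no gene was called, the 2 of smallest p; others named were chosen after their values were seen. No fold is given where a wild type array read under 3 or both held the same value. Alternatives were quantile normalization, spike-in centring on the mean of 18 probe sets (on their median, chosen after seeing the data), a filter, a trended robust prior, a replicate block, each array left out, the study's thresholds and detection levels of 3 and 5. The sample titles do not say whether the replicate numbers pair the arrays. Deviations of replicate 1 correlated by 0.0171 between genotypes over all tested probe sets, many of them near the floor, which cannot settle it.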

Additional observations from a re-analysis of the deposited data

How the results depend on the processing

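The members' direction was fixed by how they were named, and several settings cannot turn a sign, so their staying higher says nothing of stability. The count called higher was 5 on the deposited values. After quantile normalization it was 2 (ERF104 and DREB2A), where 1.19% of all tested probe sets were called higher. Spike-in centring on the mean or the median gave 12, but calls nearly all tested probe sets. The filter on dim probe sets gave 10 of 10, where 57.8% of the 3020 probe sets kept were called higher. Of these 10 members, 6 passed the filter with no wild type array over 4. The trended robust prior gave 0, where 2 of all tested probe sets were called higher. The study's thresholds gave 11, where 6.34% of all tested probe sets and 65.2% of the other single-gene probe sets of the list were called higher. With the replicate block 0 members and 0 pathway genes were called, as were 0 of all tested probe sets. Whether the replicate numbers pair the arrays is not known. Without either Atdi19-3 array 0 of all tested probe sets were called. Naming by the platform annotation alone leaves no member and gave no separate value.

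Members over 4 on both arrays numbered 2 in the wild type, 7 at a level of 3 and 1 at a level of 5, and in Atdi19-3 10, and 5 at a level of 5. The shares of all tested probe sets over these levels were higher in Atdi19-3 as well. Of the 11 pathway genes, 1 was called lower on the deposited values, beside 137 of all tested probe sets. After quantile normalization 3 were, beside 158 of all tested probe sets, and with spike-in centring on the mean 2, beside 8. The filter kept 7 of the 11, and 6 of these were called lower, beside 188 of the 3020 probe sets kept. The trended robust prior gave 0, beside 1 of all tested probe sets, and the study's thresholds gave 3, beside 83. Those called higher, 0 on the deposited values, were 9 with either spike-in centring, which calls nearly all tested probe sets higher. With the filter 1 of the 7 was called higher, beside 57.8% of the probe sets kept. As the lists were chosen with earlier results of these data known, nothing is read from these counts.

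The difference of EIN3 was close to 0 after quantile normalization (-0.04, SE 0.12), so no direction is read from it. With spike-in centring on the mean, and on the median in a setting added after seeing the data, the lower genes other than PDF1.2 and PDF1.2B turned. Among them were COR15A (1.27 and 2.56), COR47 (1.31 and 2.61), COR15B (1.14 and 2.44), LTI30 (1.34 and 2.63), LHCB4.3 (1.54 and 2.83), RTE1 (2.14 and 3.44), ARR15 (2.13 and 3.43) and THI2.1 (2.18 and 3.47). PDF1.2 was left with -0.26 on the median, smaller in size than its SE on the deposited values. The cause of the lost calls was not tested. With 2 arrays per genotype a gene that was not called may still have changed, and values near 2.49 give no order.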
